A study of Mus musculus with 4 samples.

Results

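The core circadian clock genes Arntl, Clock, Npas2, Per1, Per2, Per3, Cry1, Cry2, Nr1d1 and Nr1d2 were followed through single-nucleus RNA sequencing of mouse hippocampus. They are 10 of the 32285 genes in the deposited matrices, were chosen by symbol and were found in all 4 libraries. The libraries were a knock-in with exercise, a knock-in without exercise, a WT with exercise and a WT without exercise, with 1 library per group. All mice were female C57BL/6J on normal chow, 8 weeks old at the start, and wheel running lasted 10 weeks. The knock-in (APPNL-G-F in the labels) has an altered mouse App gene that stays under its own promoter, a change in sequence that gene counts do not check. Exercise was voluntary running in a wheel. A wheel is named by the protocol for all samples, but the titles mark 2 of them as without exercise, and titles decide the grouping here. The number of animals in a library and the time of day at which tissue was taken were not given in the sources used here, so the group, the library and the hour of collection cannot be told apart in any value below.

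The clock is a transcriptional feedback loop found in nearly every mammalian cell type. CLOCK or its relative NPAS2 pairs with BMAL1, the product of Arntl, and the pair switches on the Per and Cry genes, whose proteins return to the nucleus and block the pair, and the Nr1d1 and Nr1d2 genes, whose REV-ERB proteins repress Arntl and Npas2. Transcripts of most of these genes therefore rise and fall over the day, Per1 and Per2 are also induced by neuronal activity and hormones, and the hippocampus holds such rhythms under the lead of the suprachiasmatic nucleus. Arntl, Clock and Npas2 are called the activator arm here, and the 7 others the repressor arm.

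The short DNA elements through which the loop works can be read in the members' promoters, and 1 window is shown for each member with a match, as these are the elements by which activators, PAR bZIP factors and REV-ERB act on the loop. Windows came from RefSeq promoters on GRCm38.p6, which run from 250 bases before to 50 bases after a start. Of the 10 members, 9 had an entry, with 13 promoters between them. Both strands were searched for the E-box CACGTG, its variant E'-box CACGTT, the D-box TTANGTAA, the cAMP response element TGACGTCA and the ROR and REV-ERB element RORE. Capitals mark the match, which in the E'-box windows is read on the other strand.
Per1, E-box, chr11:69098763-69098808, + strand: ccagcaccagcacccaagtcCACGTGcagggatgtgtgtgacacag
Cry1, E-box, chr10:85185089-85185134, - strand: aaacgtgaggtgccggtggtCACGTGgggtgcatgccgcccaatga
Cry2, E'-box, chr2:92434210-92434255, - strand: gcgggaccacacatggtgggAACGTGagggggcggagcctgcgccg
Nr1d1, E'-box, chr11:98775380-98775425, - strand: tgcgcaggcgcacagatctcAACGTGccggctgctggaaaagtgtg
Per3, D-box, chr4:151044843-151044890, - strand: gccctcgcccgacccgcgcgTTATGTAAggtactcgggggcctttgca
Arntl, RORE, chr7:113207528-113207556, + strand: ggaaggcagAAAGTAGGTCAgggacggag
Cry1 also held an E'-box, and Per3 a further D-box. Among all 32817 promoters of the table, 7.15% held the E-box, 4.69% the E'-box, 2.32% the D-box, 1.79% the cAMP response element and 0.384% the RORE. The Per1 E-box lay 166 to 161 bases upstream of a start and the Cry1 E-box 60 to 55 bases upstream. The windows of Clock, Npas2 and Nr1d2 held none of these letters, which says nothing of binding elsewhere, and a match is a description of letters only. In the GENCODE annotation of GRCm38 the members without a printed window lie at other loci, with Clock at chr5:76209868-76304792, Npas2 at chr1:39193731-39363236, Per2 at chr1:91415982-91459324 and Nr1d2 at chr14:18204054-18239127.

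After filters and removal of likely doublets, 8745 nuclei remained in the knock-in with exercise, 9278 in the knock-in without exercise, 6508 in WT with exercise and 10213 in WT without exercise. Before filters, total UMIs (unique molecular identifiers, 1 per captured RNA molecule) over all deposited barcodes were between 64158446 and 91676884 per library. Clusters were made without the clock genes and named from marker lists, and the 14 clusters of the 7 main classes each had 7 to 13 of their 11 to 14 markers above the rest. The main classes were CA1, CA3 and granule neurons of the dentate gyrus, inhibitory neurons, and microglia, astrocytes and oligodendrocytes. Levels are UMIs of a gene per 1000000 UMIs of the class (CPM). The libraries stood apart beyond the clock. The knock-in with exercise held no barcode under 1199 UMIs, whereas the other libraries began at 500 to 504, and Malat1 took 3.35% of UMIs in the knock-in with exercise, 9.52% in the knock-in without exercise, 6.04% in WT with exercise and 3.22% in WT without exercise. Granule neurons and oligodendrocytes fell into clusters led by single libraries (1 granule cluster held 3127 of the 3244 granule nuclei from the knock-in with exercise and 13 of the 2567 from the knock-in without exercise), while CA3, astrocytes and microglia were 1 cluster each for all libraries. Library pairs shared 20 to 42 barcodes. Microglia of WT with exercise numbered 59 with a median of 8486 UMIs and a summed microglia marker level of 1786 CPM, against medians of 1476 to 2642 UMIs and sums of 4102 to 6046 CPM in the others, and astrocytes of the knock-in without exercise numbered 65.

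Across cell types, the activators differed from each other. Arntl, which encodes BMAL1, averaged 107 CPM over the 4 libraries in astrocytes, 96.7 CPM in subiculum and 91.6 CPM in CA1, and was lowest in oligodendrocytes with 33.6 CPM. Every neighbouring pair of classes in that order overlapped over the libraries. Clock, whose protein is the usual partner of BMAL1, showed another order. Oligodendrocytes had the highest level, 179 CPM with libraries at 170 to 194 CPM, which lay above the range of CA3, the next class, at 143 to 156 CPM. Astrocytes had the lowest, 83.9 CPM. Npas2, the forebrain relative of Clock, averaged 226 CPM in subiculum, 183 CPM in CA1 and 183 CPM in astrocytes, against 59.3 CPM in granule neurons, 56.8 CPM in inhibitory neurons and 17.0 CPM in oligodendrocytes. The Npas2 levels of the subiculum, CA1, astrocyte and deep-layer classes overlapped one another and lay above those of all other classes.

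Among the repressors, several were most abundant in astrocytes or in the class of pericytes and fibroblasts. Per3 averaged 164 CPM in astrocytes and 150 CPM in pericytes or fibroblasts, and these ranges did not reach the granule neurons that came next at 74.1 CPM, whereas the libraries of oligodendrocyte precursors ran from 34.1 to 105 CPM and overlapped those of astrocytes, at 95.3 to 246 CPM. Nr1d1 averaged 50.7 CPM in pericytes or fibroblasts and 40.1 CPM in astrocytes, and both lay above oligodendrocyte precursors at 15.7 CPM. Cajal-Retzius cells, with only 14 UMIs, ran from 4.15 to 30.8 CPM and overlapped astrocytes, at 24.4 to 57.2 CPM. Nr1d2 averaged 107 CPM in pericytes or fibroblasts, 89.9 CPM in astrocytes and only 21.9 CPM in CA3, the lowest of the 12 named classes. Cry2 averaged 105 CPM in astrocytes, although the astrocytes of the knock-in without exercise had only 7 UMIs at 52.2 CPM. Per2, whose protein anchors the repressor complex, averaged 78.1 CPM in oligodendrocyte precursors and 8.47 CPM in mature oligodendrocytes, ranges that did not meet (46.9 to 96.7 CPM against 3.56 to 12.2 CPM). Cry1 was sparse everywhere, with 9.67 CPM in inhibitory neurons at the top and 3.11 CPM in CA1 at the bottom. Per1 class means ran between 13.8 CPM in granule neurons and 29.1 CPM in subiculum, and within granule neurons the highest library was 3.24-fold the lowest. The pericyte or fibroblast class held only 27 to 68 nuclei per library.

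**Figure D1:**
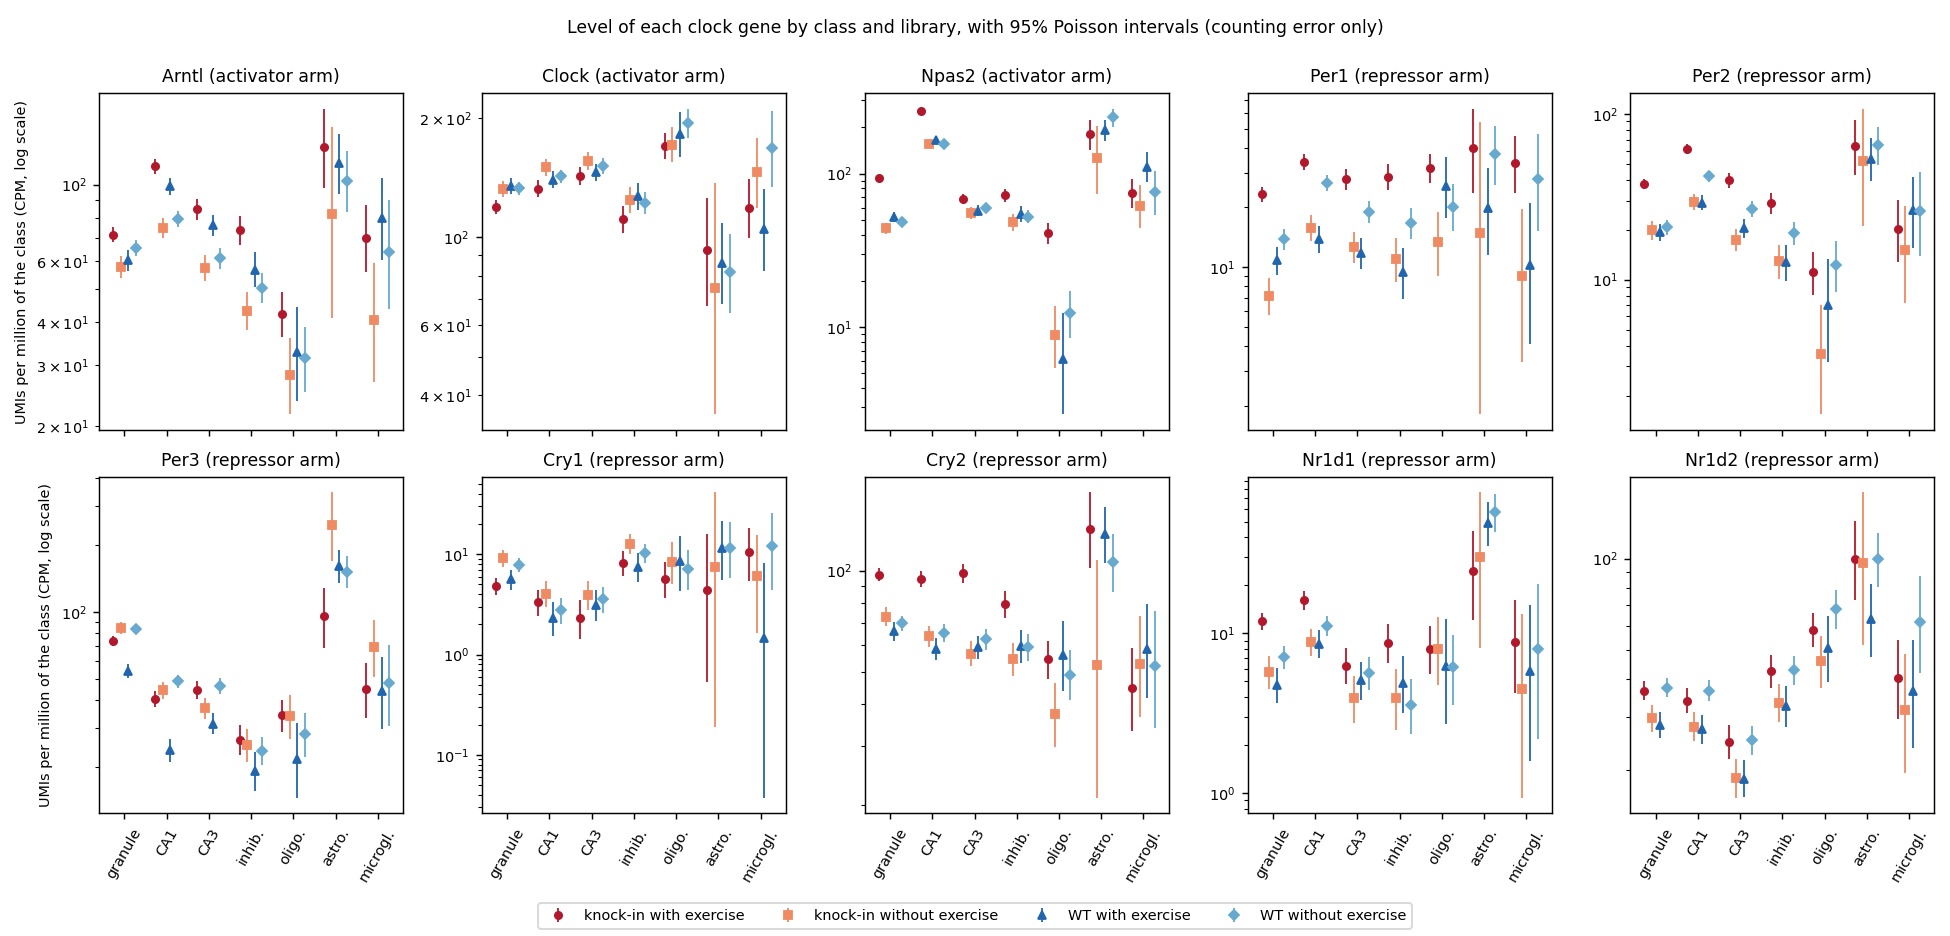
Level of each clock gene (vertical axis, CPM on a log scale) in 7 classes (horizontal axis) and 4 libraries (symbols, knock-in with exercise at the left of each class), with exact Poisson 95% intervals that cover counting error only. Per1 and Per2 of the knock-in with exercise lie above the other 3 libraries in all 4 neuron classes, whereas Clock differs little between libraries there, and Npas2 of oligodendrocytes reaches 40.8 CPM in the knock-in with exercise.

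Gene groups were compared between libraries in 4 ways: knock-in over WT without and with exercise, and exercise over no exercise in WT and in the knock-in. A gene was taken as measured in a class with at least 50 UMIs over both libraries, and as higher or lower from 1.5-fold. No test is possible with 1 library per group, and intervals on log2 ratios are exact binomial intervals for counting error only. The comparisons share libraries in pairs, so that a high value of the knock-in with exercise enters both comparisons that have it on top.

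Per1 and Per2, the light- and activity-responsive repressors, were highest in the knock-in with exercise in all 4 neuron classes. That place was taken by 29.6% of the 12477 genes with at least 50 UMIs over the 4 libraries in each of these classes. Per1 stood at 33.9 CPM in CA1 of the knock-in with exercise, 15.8 CPM in the knock-in without exercise, 13.9 CPM in WT with exercise and 26.5 CPM in WT without exercise. Per1 in granule neurons was 23.3 CPM in the knock-in with exercise, 7.18 CPM in the knock-in without exercise, 10.8 CPM in WT with exercise and 13.8 CPM in WT without exercise. In both classes the knock-in with exercise was the highest library and WT without exercise the next, with Poisson intervals that did not overlap. CA3 gave 27.8 CPM in the knock-in with exercise, 12.6 CPM in the knock-in without exercise, 11.7 CPM in WT with exercise and 19.0 CPM in WT without exercise. Inhibitory neurons gave 28.6 CPM in the knock-in with exercise, 10.9 CPM in the knock-in without exercise, 9.42 CPM in WT with exercise and 16.7 CPM in WT without exercise. There too WT without exercise was the next library after the knock-in with exercise, and the other libraries lay close together. The log2 ratio of exercise over no exercise for Per1 was therefore positive in the knock-in, with 1.70 in granule neurons (1.37 to 2.04), 1.10 in CA1 (0.85 to 1.36), 1.13 in CA3 (0.82 to 1.46) and 1.38 in inhibitory neurons (0.95 to 1.83). In WT it was negative, with -0.36 in granule neurons (-0.65 to -0.06), -0.93 in CA1 (-1.20 to -0.67), -0.70 in CA3 (-1.02 to -0.38) and -0.83 in inhibitory neurons (-1.34 to -0.34). Read by genotype, Per1 was lower in the knock-in without exercise than in WT without exercise in all 4 neuron classes, by log2 ratios of -0.95 to -0.59, and higher in the knock-in with exercise than in WT with exercise, by 1.11 to 1.60. These signs held in the 4 neuron classes under all 9 recomputations by other scalings, filters, clusterings or depth. No test of the difference between the genotypes could be made.

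Per2 followed Per1 in part. Per2 in CA1 stood at 61.3 CPM in the knock-in with exercise, 29.4 CPM in the knock-in without exercise, 29.2 CPM in WT with exercise and 42.1 CPM in WT without exercise. In granule neurons it was 38.0 CPM in the knock-in with exercise, against 19.9 CPM in the knock-in without exercise, 19.3 CPM in WT with exercise and 20.7 CPM in WT without exercise, 3 libraries whose intervals overlapped. In CA3 it was 39.7 CPM in the knock-in with exercise, 17.4 CPM in the knock-in without exercise, 20.4 CPM in WT with exercise and 26.9 CPM in WT without exercise. The knock-in with exercise thus led, and WT without exercise came next in CA1 and CA3. Inhibitory neurons had the same 2 libraries on top, with 28.9 CPM in the knock-in with exercise, 12.9 CPM in the knock-in without exercise, 12.8 CPM in WT with exercise and 19.1 CPM in WT without exercise. The log2 ratio of exercise over no exercise in the knock-in was 0.94 to 1.19 in the neuron classes, against -0.58 to -0.10 in WT, where the granule value turned to 0.02 under median-of-ratios factors. Outside the 7 classes, Per2 in the subiculum was also highest in the knock-in with exercise, at 47.6 CPM against 22.9 to 33.9 CPM in the other libraries.

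Per3 did not share that pattern. In all 4 neuron classes WT with exercise was the lowest library for Per3, as it was for 10.8% of genes. Thinned nuclei gave 0.74 for exercise in WT in inhibitory neurons, so no direction is given there. Per3 in CA1 was 40.6 CPM in the knock-in with exercise, 44.4 CPM in the knock-in without exercise, 23.9 CPM in WT with exercise and 48.8 CPM in WT without exercise, a log2 ratio of -1.03 (-1.23 to -0.83) for exercise in WT and of -0.13 (-0.31 to 0.05) for exercise in the knock-in. In granule neurons exercise in WT gave -0.62 (-0.75 to -0.50). In astrocytes, by contrast, the knock-in with exercise was lowest, with 95.3 CPM (43 UMIs), against 246 CPM (33 UMIs) in the knock-in without exercise, 161 CPM in WT with exercise and 152 CPM in WT without exercise. The CA1 marker list in these astrocytes summed to 1401 CPM in the knock-in with exercise, 306 CPM in the knock-in without exercise (5 of 12 markers at 0), 537 CPM in WT with exercise and 633 CPM in WT without exercise, and its part in the astrocyte values was not tested. The whole of Per3 lies within the annotated span of Camta1 on the same strand, which leaves the assignment of reads between them uncertain, and Camta1 itself had log2 ratios in CA1 of 1.07 for exercise within the knock-in and -0.16 within WT.

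The cryptochromes, which bind and block the activator pair, went apart. Cry2 was highest in the knock-in with exercise in all 4 neuron classes. In CA3 it was 98.3 CPM in the knock-in with exercise, 56.5 CPM in the knock-in without exercise, 59.0 CPM in WT with exercise and 62.4 CPM in WT without exercise, a log2 ratio of 0.80 (0.64 to 0.95) for exercise in the knock-in, while the 3 remaining libraries lay close together. Cry1 was highest in the knock-in without exercise in all 4 neuron classes, as were 19.4% of genes, but its interval overlapped that of WT without exercise in each, with granule levels of 4.78 CPM in the knock-in with exercise, 9.09 CPM in the knock-in without exercise, 5.62 CPM in WT with exercise and 7.87 CPM in WT without exercise. Its log2 ratio of exercise over no exercise in the knock-in was -0.93 (-1.33 to -0.53) in granule neurons and -0.63 (-1.19 to -0.08) in inhibitory neurons. In CA3 it was -0.77, but 0.44 after thinning nuclei to 1500 UMIs each, so no direction is given there. Nuclei under 1500 UMIs were left out of that step. Few thinned CA3 nuclei of the knock-in held Cry1, with 0.77% of 648 with exercise and 0.57% of 880 without. D930015M05Rik on the other strand overlaps 77.0% of Cry2, and use of strand in counting was not given in the sources used here.

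The REV-ERB genes also differed. Nr1d1 in granule neurons was 11.9 CPM in the knock-in with exercise, 5.74 CPM in the knock-in without exercise, 4.75 CPM in WT with exercise and 7.10 CPM in WT without exercise. In CA1 it was 16.2 CPM in the knock-in with exercise, 8.81 CPM in the knock-in without exercise, 8.59 CPM in WT with exercise and 11.1 CPM in WT without exercise. The knock-in with exercise was again highest in all 4 neuron classes, although its interval overlapped that of at least 1 other library in CA3 and in inhibitory neurons, with log2 ratios for exercise in the knock-in of 1.05 (0.66 to 1.45) in granule neurons and 0.88 (0.53 to 1.23) in CA1. In inhibitory neurons the knock-in over WT with exercise gave 0.83, but -0.10 after thinning, when few nuclei held it (1.08% of 557 and 1.15% of 433). Astrocytes went the other way: Nr1d1 was 24.4 CPM (11 UMIs) in the knock-in with exercise and 29.9 CPM (4 UMIs) in the knock-in without exercise, against 49.0 CPM (42 UMIs) in WT with exercise and 57.2 CPM (54 UMIs) in WT without exercise. Nr1d2 was highest in WT without exercise and lowest in WT with exercise in all 4 neuron classes, and 2.79% of genes were highest there in all 4. Granule neurons had 36.6 CPM of Nr1d2 in the knock-in with exercise, 29.7 CPM in the knock-in without exercise, 28.2 CPM in WT with exercise and 37.4 CPM in WT without exercise. The first and the last of these overlapped in their intervals, so the libraries fell into a higher and a lower pair. Exercise over no exercise gave Nr1d2 log2 ratios of -0.42 to -0.40 in WT neurons and 0.29 to 0.40 in knock-in neurons, all within 1.5-fold. Thra, the thyroid hormone receptor gene on the other strand, overlaps 14.5% of Nr1d1, and it had a log2 ratio of 0.45 for exercise in the knock-in in granule neurons.

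Of the activators, Clock differed least between libraries in all 4 neuron classes. Clock was lowest in the knock-in with exercise in all 4, as were 11.9% of genes, but the highest library was only 1.09- to 1.14-fold the lowest. In granule neurons Clock stood at 119 CPM in the knock-in with exercise, 132 CPM in the knock-in without exercise, 135 CPM in WT with exercise and 133 CPM in WT without exercise. Arntl was highest in the knock-in with exercise and, as were 16.6% of genes, lowest in the knock-in without exercise in all 4. Arntl in CA1 was 113 CPM in the knock-in with exercise, 75.0 CPM in the knock-in without exercise, 99.0 CPM in WT with exercise and 79.4 CPM in WT without exercise. In inhibitory neurons it was 73.7 CPM in the knock-in with exercise, 43.1 CPM in the knock-in without exercise, 56.7 CPM in WT with exercise and 50.2 CPM in WT without exercise. In both classes each library with exercise stood above its counterpart without, though in WT inhibitory neurons their counting intervals overlapped. Its log2 ratio of the knock-in over WT with exercise, 0.19 in CA1 and 0.16 in CA3, turned to -0.08 and -0.05 under other scalings. For exercise over no exercise Arntl had log2 ratios of 0.78 in inhibitory neurons, 0.59 in CA1 and 0.57 in CA3 of the knock-in, and of 0.18 in inhibitory neurons, 0.32 in CA1 and 0.32 in CA3 of WT. In granule neurons it had 0.31 in the knock-in and -0.12 in WT. Npas2 in CA1 had 256 CPM in the knock-in with exercise, against 155 CPM in the knock-in without exercise, 166 CPM in WT with exercise and 155 CPM in WT without exercise, and in granule neurons 93.4 CPM in the knock-in with exercise, 43.9 CPM in the knock-in without exercise, 51.9 CPM in WT with exercise and 48.1 CPM in WT without exercise. The 3 lower libraries were close in both classes. The log2 ratio for exercise in the knock-in was 0.73 (0.64 to 0.81) in CA1 and 1.09 (0.95 to 1.23) in granule neurons.

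Npas2 in oligodendrocytes gave the largest log2 ratio among the measured pairs of member and class, 2.71 (1.70 to 3.94) for genotype with exercise. It was 40.8 CPM (173 UMIs) in the knock-in with exercise, 8.91 CPM (20 UMIs) in the knock-in without exercise, 6.23 CPM (8 UMIs) in WT with exercise and 12.2 CPM (34 UMIs) in WT without exercise. The log2 ratio for exercise in the knock-in was 2.19 (1.52 to 2.94). Oligodendrocytes of these libraries lay in different clusters, and the summed level of the CA1 marker list in them was 3698 CPM in the knock-in with exercise, 2521 CPM in the knock-in without exercise, 3211 CPM in WT with exercise and 3301 CPM in WT without exercise, with 0 of 12 markers at 0 in each. Its part in the result was not tested. Per1 in oligodendrocytes was 31.6 CPM in the knock-in with exercise, 13.4 CPM in the knock-in without exercise, 25.7 CPM in WT with exercise and 20.2 CPM in WT without exercise, so the exercise ratio was above 0 in both genotypes here, with 1.24 (0.66 to 1.86) in the knock-in and 0.35 in WT, where the interval spanned 0. Per2 in oligodendrocytes rested on 47 UMIs in the knock-in with exercise, 8 in the knock-in without exercise, 9 in WT with exercise and 34 in WT without exercise.

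**Figure D2:**
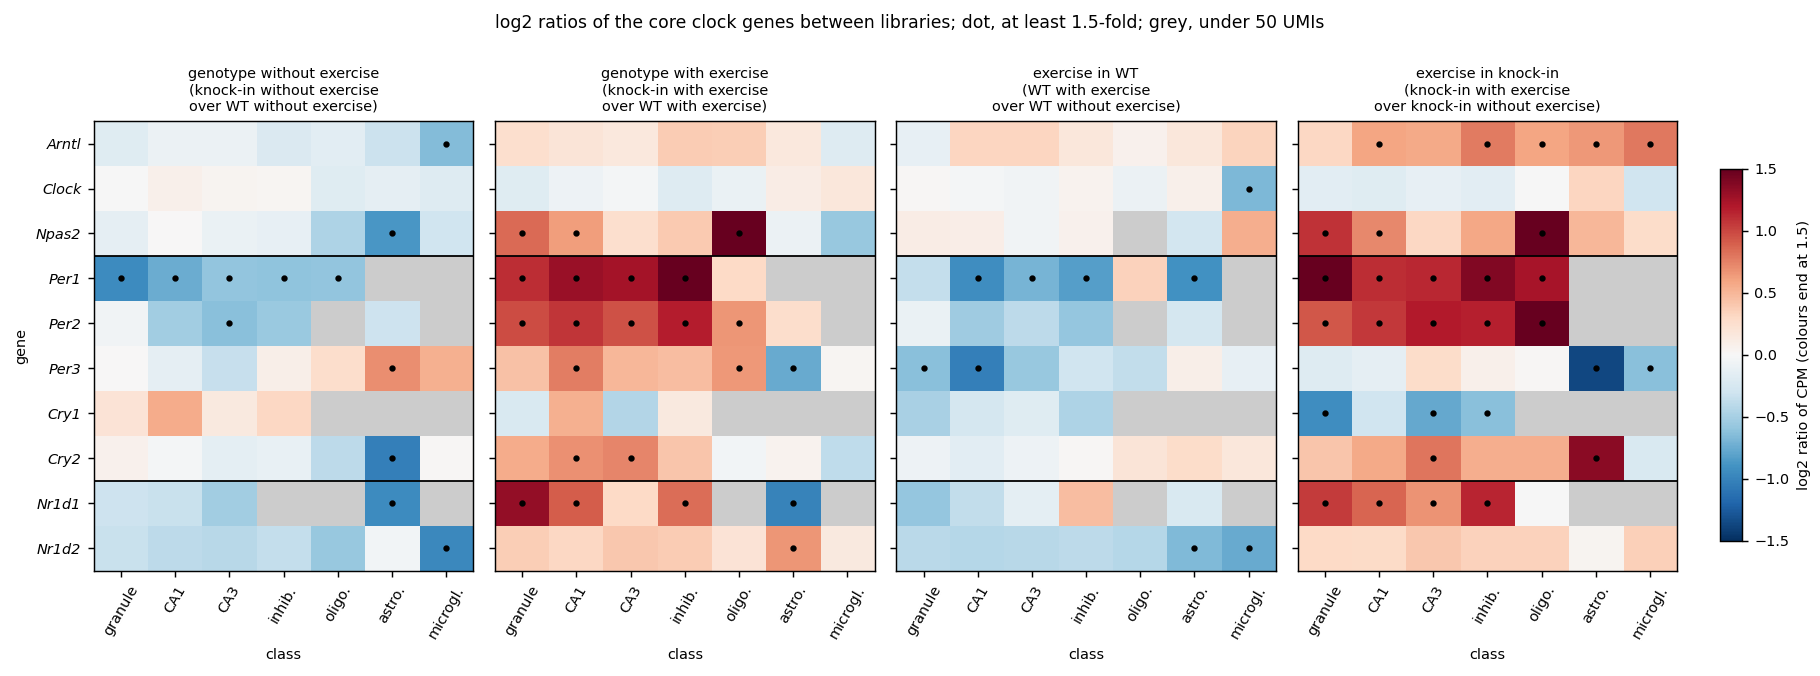
log2 ratio of CPM (colour, red for higher in the library on top) of each clock gene (rows, activators, PER and CRY, and REV-ERB genes separated by lines) in 7 classes (columns) for the 4 comparisons. Per1 is blue in the neuron classes for genotype without exercise and for exercise in WT, and red for the other 2 comparisons. Clock stays near white in neurons.

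Counted over 10 genes and 7 classes, genotype with exercise had 62 measured pairs of gene and class, of which 20 were higher and 2 lower in the knock-in, where 25.5% of all measured pairs of any gene were higher and 7.78% lower. Exercise in the knock-in had 61 measured pairs with 24 higher and 5 lower, where 25.3% and 17.1% of all pairs were. So about 1 pair in 4 of any gene was higher in the knock-in with exercise, and the members' shares were 32.3% for genotype and 39.3% for exercise. Genotype without exercise had 60 measured pairs with 1 higher and 11 lower, where 12.6% and 11.9% of all pairs were. Exercise in WT had 61 measured pairs with 0 higher and 9 lower, where 2.78% and 10.1% were. The split of higher to lower pairs moved with the scaling: median-of-ratios factors gave 3 and 7 for genotype without exercise (13.4% and 10.6% of all pairs at that scaling), 16 and 5 for genotype with exercise (16.0% and 12.7%) and 3 and 5 for exercise in WT (5.04% and 5.59%), and TMM factors 15 and 5 for genotype with exercise (16.4% and 12.4%) and 2 and 5 for exercise in WT (4.63% and 6.32%). With the microglia class left out, a choice made after seeing the data, higher and lower pairs numbered 20 and 2 of 56 for genotype with exercise (24.5% and 7.59% of all pairs), 23 and 4 of 55 for exercise within the knock-in (25.2% and 17.8%), 1 and 9 of 54 for genotype without exercise (12.8% and 11.5%), and 0 and 7 of 55 for exercise in WT (2.32% and 9.13%). Being highest in the knock-in with exercise in all 4 neuron classes held for 6 of the 10 members (Arntl, Npas2, Per1, Per2, Cry2 and Nr1d1), beside 29.6% of all genes. Arntl lost that place in CA1 and CA3 under other scalings and Nr1d1 in inhibitory neurons after thinning, with the log2 ratios of -0.08, -0.05 and -0.10 given above. The last of these rested on few thinned nuclei. No member was highest in WT with exercise or lowest in WT without exercise in all 4, as were 0.665% and 1.03% of genes.

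Set side by side, the repressor medians lay below the activator medians in all 4 neuron classes for exercise in WT. All 7 repressors were below 0 in granule neurons, CA1 and CA3, with medians of -0.41, -0.42 and -0.39, against 0.02, 0.10 and -0.05 for the 3 activators. The median of all genes in these classes was -0.12, -0.17 and -0.16, so most genes were below 0 there too. In inhibitory neurons 5 of 7 repressors were below 0, with medians of -0.40 for the repressors and 0.07 for the activators. Median-of-ratios factors turned Cry2 to 0.04 in granule neurons, 0.02 in CA1 and 0.08 in CA3, and Nr1d1 to 0.02 in CA3. Thinning turned Cry1 to 0.41 in granule neurons and 0.41 in CA1 and Per2 to 0.13 in granule neurons. Few thinned nuclei held Cry1. In granule neurons it was found in 0.94% in WT with exercise and 0.75% in WT without exercise, and in CA1 in 0.57% and 0.43%. A scaling factor moves both arms alike by arithmetic, so the gap between the arms cannot change with it. The gap after thinning, other filters or other clusterings is not given here. All 3 activators are longer genes than any of the 7 repressors, so arm and gene length cannot be told apart here. For genotype with exercise, the repressor medians were 0.56, 0.76, 0.50 and 0.46 in granule neurons, CA1, CA3 and inhibitory neurons, the activator medians 0.25, 0.19, 0.16 and 0.38, and the all-gene medians 0.22, 0.29, 0.24 and 0.24. Other scalings moved the median of all genes itself, for example to 0.04 in CA1 under TMM factors, and median-of-ratios factors turned the activator medians to -0.08 in CA1 and -0.05 in CA3. For exercise in the knock-in, repressor and activator medians were both above the all-gene median in each neuron class, with 0.42 and 0.31 in granule neurons, 0.56 and 0.59 in CA1, 0.68 and 0.31 in CA3 and 0.54 and 0.58 in inhibitory neurons, so neither arm was the higher in all 4. For genotype without exercise, the repressors' medians were -0.34 in CA1 and -0.42 in CA3, against 0.00 and -0.09 for the activators. Granule neurons had -0.06 for the repressors and -0.13 for the activators there, and inhibitory neurons -0.24 and -0.12, so the repressors lay lower in 3 of the 4 classes. In glia the arms were measured with only 2 to 6 genes, and the medians of all genes are not given here. The 59 microglia of WT with exercise had a low marker level, as given above. At resolution 2.0 only 24 nuclei of that library bore the microglia name. For exercise in WT the repressor medians lay below the activator medians there too, though by little in oligodendrocytes (-0.09 and -0.01). Astrocytes had -0.25 and 0.08, and microglia -0.13 and 0.33. The same order held for exercise within the knock-in, with medians in oligodendrocytes of 0.44 and 0.59, astrocytes of 0.04 and 0.50 and microglia of -0.23 and 0.27. For genotype the repressors were the lower in oligodendrocytes (0.30 and 0.37 with exercise, -0.48 and -0.18 without) and the higher in microglia (0.03 and -0.19 with exercise, 0.02 and -0.30 without), and in astrocytes the medians differed by little (0.05 and 0.11 with exercise, -0.31 and -0.32 without).

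**Figure D3:**
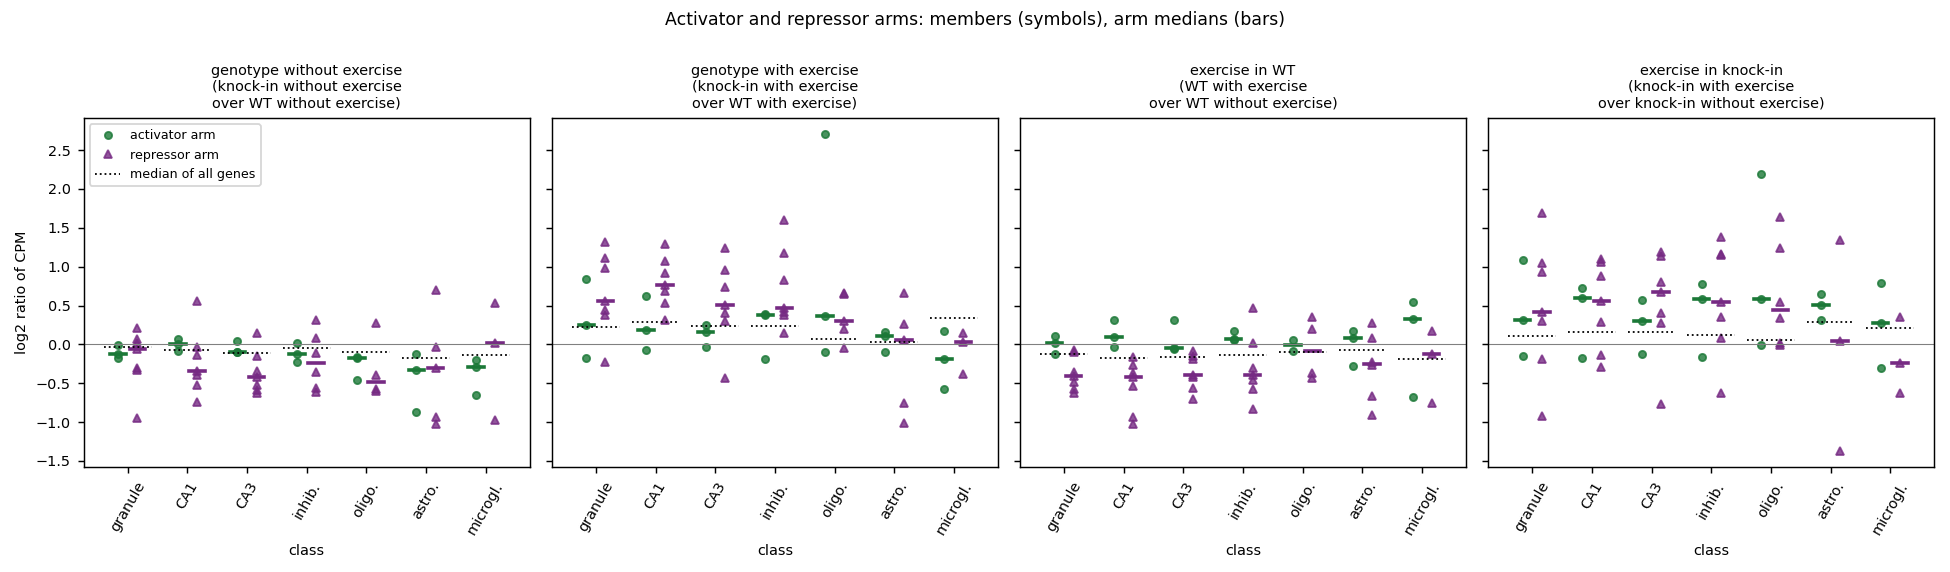
log2 ratio of CPM (vertical axis) of the activator arm (circles) and the repressor arm (triangles) by class (horizontal axis) for the 4 comparisons, with a bar at the median of each arm and a dotted line at the median of all measured genes. In WT with exercise over WT without exercise the repressor bars of granule neurons, CA1 and CA3 lie at -0.42 to -0.39, below the activator bars at -0.05 to 0.10.

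The relation of the ratios with gene length varied with class and comparison. The members run between 7402 bp for Nr1d1, 14744 bp for Per1 and 169506 bp for Npas2. Each activator is longer than every repressor, with 94925 bp for Clock, the shortest activator, and 53365 bp for Cry1, the longest repressor. Across all measured genes, Spearman's rho of the log2 ratio with gene length was 0.26 in granule neurons and 0.58 in oligodendrocytes for exercise in the knock-in, 0.20 in granule neurons and 0.34 in CA3 for exercise in WT, -0.26 in CA3 for genotype with exercise and -0.55 in oligodendrocytes for genotype without exercise. Some values were near 0, such as -0.0055 in granule neurons for genotype with exercise. Oligodendrocytes at -0.055 and astrocytes at -0.049 were also near 0 for exercise in WT. In oligodendrocytes genotype with exercise gave 0.33. Further values lay away from 0. Exercise over no exercise gave 0.36 in WT microglia and 0.35 in knock-in astrocytes. The knock-in over WT gave -0.30 in granule neurons of the libraries without exercise and -0.34 in microglia of those with exercise. These are descriptions across genes of the same libraries. The part of length in the members' ratios, and in the gap between the arms, was not tested.

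Beyond the 10 members, a wider list of 24 clock genes was measured, chosen by role. Of the PAR bZIP factors that carry the rhythm to output genes through the D-box, Dbp, Tef and Hlf were each highest in the knock-in with exercise in all 4 neuron classes. Dbp in CA1 was 22.1 CPM in the knock-in with exercise, 10.3 CPM in the knock-in without exercise, 10.1 CPM in WT with exercise and 16.7 CPM in WT without exercise, so WT without exercise was again the second highest library. Its log2 ratio was 1.11 (0.79 to 1.43) for exercise in the knock-in and -0.72 (-1.04 to -0.41) for exercise in WT. Hlf in CA1 had 0.59 (0.37 to 0.81) and -0.80 (-1.03 to -0.57) in the same comparisons. Nfil3, their antagonist, was measured only in granule, CA1 and CA3 neurons.

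Csnk1e, a kinase that phosphorylates PER proteins and so speeds their loss, was highest in the knock-in with exercise and next in WT without exercise in all 4 neuron classes. In CA1 it was 40.1 CPM in the knock-in with exercise, 14.3 CPM in the knock-in without exercise, 15.9 CPM in WT with exercise and 25.0 CPM in WT without exercise, with log2 ratios of 1.49 (1.24 to 1.75) for exercise in the knock-in and -0.65 (-0.91 to -0.40) for exercise in WT. Csnk1d, its close relative, had 0.63 (0.43 to 0.83) and -0.40 (-0.58 to -0.22) in CA1. Usp2, a deubiquitinase of clock proteins, was higher in CA1 of the knock-in with exercise than without (0.93, 0.73 to 1.13), and Gsk3b stayed within 1.5-fold in all classes. Of the ROR receptors, which oppose REV-ERB at the RORE, Rora in oligodendrocytes was 292 CPM in the knock-in with exercise, 69.5 CPM in the knock-in without exercise, 121 CPM in WT with exercise and 146 CPM in WT without exercise, a log2 ratio of 2.07 (1.83 to 2.32) for exercise in the knock-in. Rorb in CA3 went the other way, with -1.32 (-1.83 to -0.83). In all, the list had 38 pairs higher and 6 lower of 130 measured for genotype with exercise (29.2% and 4.62%, beside 25.5% and 7.78% of all pairs). Exercise within the knock-in had 31 and 6 of 125 (24.8% and 4.8%, beside 25.3% and 17.1%). Genotype without exercise had 4 and 17 of 129 (3.1% and 13.2%, beside 12.6% and 11.9%). Exercise in WT had 3 and 20 of 126 (2.38% and 15.9%, beside 2.78% and 10.1%). The list's shares of higher pairs thus lay near those of all pairs where the knock-in with exercise was on top. Of the 22 genes with at least 50 UMIs over the 4 libraries in each neuron class, 8 were highest in the knock-in with exercise in each, beside 29.6% of all genes. Of the same 22, 2 were lowest in the knock-in with exercise in each (11.9% of all genes), 5 in the knock-in without exercise (16.6%) and 2 in WT with exercise (10.8%).

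**Figure D4:**
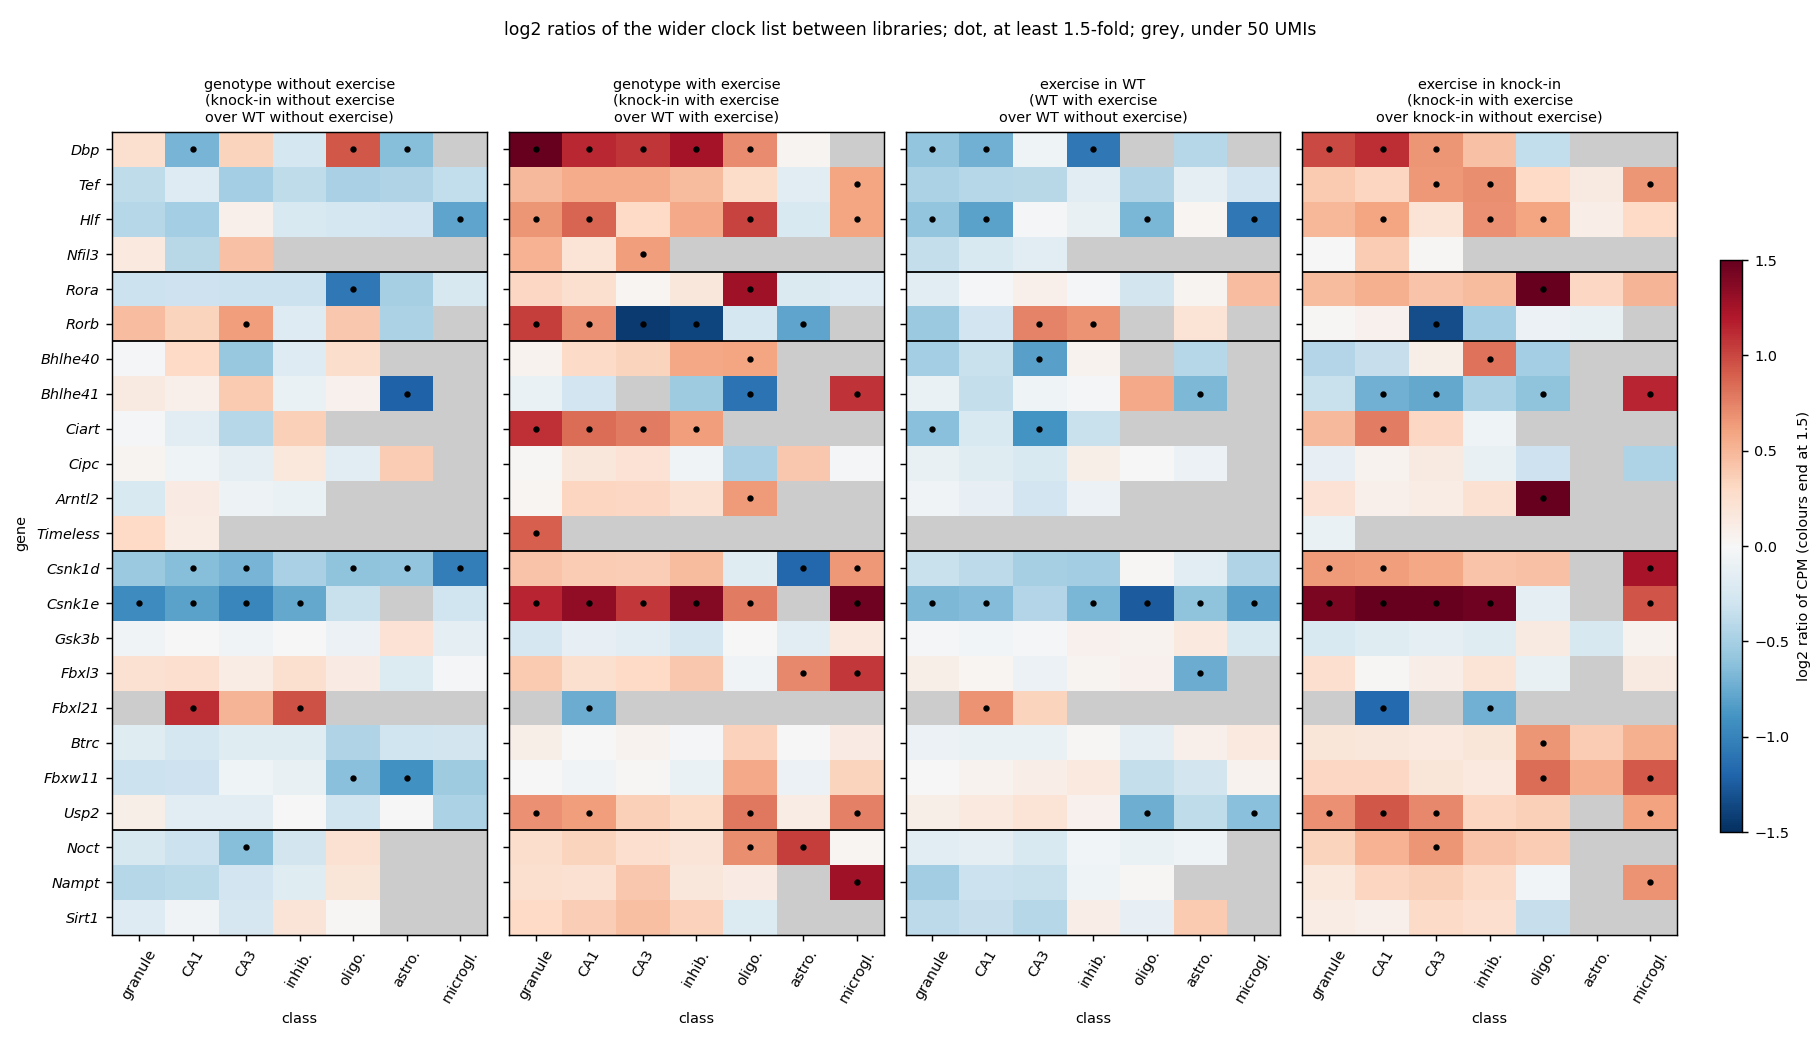
log2 ratio of CPM (colour) of the further clock genes measured in at least 1 class (rows, output factors, ROR receptors, other loop factors, kinases and ubiquitin pathway genes, and outputs and cofactors separated by lines) in 7 classes (columns) for the 4 comparisons, with grey for pairs under 50 UMIs. Dbp and Csnk1e are blue for exercise in WT and red for exercise in the knock-in in CA1.

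The genes most like each member were ranked by Pearson's r of log2(CPM + 1) over the 28 sums of class and library, points that share libraries, classes and depth. Arntl and Per2 were both most like Wwc1, with r = 0.94 and 0.96. Nr1d1 had Ttyh1 (0.93) first and Dbp (0.92) next, Npas2 had Armc2 (0.91), Per3 had Mmd2 (0.90), Nr1d2 had Appl2 (0.93), Per1 had Washc2 (0.87), Clock had Gm10791 (0.88), Cry1 had Ap1s2 (0.85) and Cry2 had Spag1 (0.80). Among the members themselves, Arntl and Per2 (0.92) and Arntl and Npas2 (0.91) were most alike, and Clock was negative with all 9 others (-0.12 with Per1 to -0.69 with Nr1d1).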

How the data were processed

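Nuclei came from frozen tissue and libraries from the 10x Chromium 3' v3.1 kit, per the labels' protocols. The authors deposited raw UMI counts for each gene in each barcode, with no normalization. Cell Ranger 5.0.1 is named per the file headers, but 3.1.0, with mm10, per the submitters' processing notes. Use of introns and strand in counting was not given in the sources used here. Symbols were found in the files, and coordinates come from GENCODE M21 on GRCm38.

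From the deposited counts, nuclei were kept with at least 500 genes, 1000 UMIs and less than 5% of UMIs from mitochondrial genes. Within each library, nuclei were scored for likeness to simulated doublets, and those scoring highest (0.8% per 1000 nuclei) were left out. Between 39.3% and 58.6% of simulated doublets scored above that limit, so doublets may remain. Clustering (scanpy 1.11.5, 2000 variable genes without the clock genes, 30 components, 15 neighbours, Leiden resolution 1.0, no integration) gave 25 clusters, of which 6 stayed unnamed by the marker lists. A name means that nuclei are like that type, and names were rebuilt here. UMIs were summed per library and class. With 1 library a group there was no test, since nuclei do not replicate a condition, and Poisson and binomial 95% intervals leave out differences between animals and preparations. TMM factors came from edgeR 4.0.16.

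The genes named are the 10 members, the wider list, and per member the genes with the highest Pearson correlation among those with at least 200 UMIs. Members, lists, markers and alternatives were chosen with earlier results of these data known. The ratio code was tested on simulated data. A gene of the wider list is not reported here.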

Additional observations from a re-analysis of the deposited data

Results flagged for a closer look

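For several members the ratio of the same comparison had opposite signs in the 2 genotypes, or with and without exercise, each past 1.5-fold. With 1 library per group the difference was not tested. The share of all genes with such opposite signs is not given here, so the pattern cannot be called particular to these members. Of all pairs of any gene, 25.5% were higher for genotype with exercise and 25.3% for exercise in the knock-in. Lower were 11.9% for genotype without exercise and 10.1% for exercise in WT. Per1 had log2 ratios for exercise in the knock-in and in WT of 1.10 and -0.93 in CA1, 1.13 and -0.70 in CA3, and 1.38 and -0.83 in inhibitory neurons. For the knock-in over WT, Per1 had 1.11 with exercise and -0.95 without exercise in granule neurons, 1.29 and -0.74 in CA1, 1.24 and -0.59 in CA3, and 1.60 and -0.61 in inhibitory neurons. Per2 in CA3 had 0.96 with exercise and -0.62 without. Per3 in astrocytes ran the other way, with -0.76 with exercise and 0.70 without, on 33 UMIs in the knock-in without exercise. The positive Per1 ratios and that of Per2 stayed past 1.5-fold under every recomputation. Of the negative ones this held for Per1 in CA1 and inhibitory neurons for exercise in WT and in granule neurons for genotype without exercise, and not for Per1 in CA3 for exercise in WT, for Per1 in CA1, CA3 and inhibitory neurons and Per2 in CA3 for genotype without exercise, or for either Per3 ratio. The 2 ratios of a pair share no library. WT without exercise, the second highest library for Per1 in the neuron classes, is the denominator of both kinds of negative ratio.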

How the results depend on the processing

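No paired analysis was possible because each group has 1 library and the results come from no test, and no replicate could be left out. Of the pairs called, 27 of 29 kept their sign under every recomputation for exercise in the knock-in, 21 of 22 for genotype with exercise, 8 of 9 for exercise in WT and 9 of 12 for genotype without exercise. Of these 18, 11, 3 and 1 stayed past 1.5-fold in that order of comparisons. Reversed log2 ratios were Per1 in oligodendrocytes (0.022) and Arntl in microglia (0.36) for genotype without exercise, Nr1d1 in inhibitory neurons (-0.10) for genotype with exercise, and Cry1 in CA3 (0.44) and Per3 in microglia (0.043) for exercise in the knock-in, all after thinning, Cry2 in astrocytes (0.032, genotype without exercise) with doublets kept, and Clock in microglia (0.19, exercise in WT) at resolution 2.0. The cause was not tested.

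Counts of higher or lower pairs that moved by over 1.5 times were as follows. Genotype without exercise had 3 higher with median-of-ratios factors, with the total without abundant genes and after thinning, 0 with doublets kept, with a minimum of 200 UMIs and at 2-fold. It had 7 lower with median-of-ratios factors and after thinning, 6 with the total without abundant genes and with 4000 variable genes, 18 with no minimum, 5 at 200 UMIs and 1 at 2-fold. Genotype with exercise had 8 higher at 2-fold, and 5 lower with TMM and median-of-ratios factors, 0 with 4000 variable genes and at 200 UMIs, 4 with no minimum and 1 at 2-fold. Exercise in WT had 2 higher with TMM factors, 3 with median-of-ratios factors, and 1 with the total without abundant genes and after thinning, and 5 lower with both factors, 4 at 200 UMIs and 1 at 2-fold. Exercise in the knock-in had 14 higher at 2-fold, and 2 lower with 4000 variable genes and after thinning, and 1 at 200 UMIs and at 2-fold. Measured pairs numbered 39 to 44 after thinning, 38 to 41 at 200 UMIs, 70 with no minimum and 54 to 68 otherwise. The shares of all pairs of any gene moved with these settings too, between those at 2-fold and the highest of the alternatives: higher 4.26% to 22.0% and lower 2.64% to 15.8% for genotype without exercise, higher 9.54% to 29.0% and lower 3.1% to 16.2% for genotype with exercise, higher 0.571% to 10.7% and lower 2.0% to 17.6% for exercise in WT, and higher 11.0% to 27.7% and lower 8.95% to 25.5% for exercise within the knock-in. Depth limits Cry1 and Nr1d1 most, and all members in astrocytes of the knock-in without exercise, where each had 1 to 33 UMIs.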
